A study of Mus musculus with 9 samples.

Results

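The 40 genes described here encode cyclins, cyclin-dependent kinases and proteins of mitosis. They were chosen by name for those roles, with earlier results of these data known, so counts over them are descriptions. They were found by gene name among 54986 gene IDs in the abundance tables. They comprise 8 cyclins and kinases of G1 (Ccnd1, Ccnd2, Ccnd3, Cdk4, Cdk6, Ccne1, Ccne2 and Cdk2) and 32 genes that act around mitosis. All 40 were among the 15837 genes that passed the filter on low values. Kif11 was listed under a gene ID on chromosome 19 and under another on an assembly scaffold, with nearly the same values at both, and the ID on chromosome 19 was used. How reads that match both were shared between them is not stated, so the level given for Kif11 may be too low.

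The cells were primary embryonic fibroblasts of C57BL/6 mice, described in the labels as D4-OSKM-2ndMEFs, and total RNA was sequenced. OSKM is the usual short name of the reprogramming factors Oct4, Sox2, Klf4 and Myc, and it stands in the label of every library, control included, so no group without it was compared. There were 3 groups of 3 libraries: control, whose titles name no overexpressed gene and no empty vector, Zscan4f overexpression, and overexpression of Zscan4f3A, a variant by its name. The labels state neither the sequence of the variant nor what drove either gene, nor what D4 stands for. They do not say whether replicates are separate cultures, so a p-value here measures the spread between the libraries only, and that spread may be technical.

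Zscan4f itself stood at 0.330, 0 and 0.960 TPM (a level scaled by transcript length and library, which can be compared between genes) in the control libraries. With Zscan4f overexpression it stood at 570.0, 565 and 558 TPM, and with Zscan4f3A at 827, 836 and 654. The aligned sequence behind a library was 6.60 to 8.39 gigabases, except for Zscan4f3A replicate 3 with 3.31. All 12 fibroblast markers reached 1 TPM in at least 3 libraries, and their summed level was 15771 to 15839 TPM in control, 15564 to 15774 with Zscan4f and 15519 to 15989 with Zscan4f3A. Single fibroblast markers differed, called at an adjusted p under 0.05 in the limma test described below. With Zscan4f against control 3 of the 12 were called higher and 6 lower, beside 8.74% and 9.71% of all genes. Among them were Dcn at a log2 fold change of 0.51 and Col5a1 at -0.53. Against Zscan4f3A 3 were higher and 5 lower with Zscan4f (beside 7.48% and 7.64%), and 0 were called between Zscan4f3A and control. The summed level of 6 epithelial markers was 37.1 to 38.4 TPM in control, 109.7 to 117 with Zscan4f and 42.1 to 45.0 with Zscan4f3A. Of the 6, 5 were called higher with Zscan4f than in control, beside 8.74% of all genes. For 5 endothelial markers the sums were 30.1 to 32.7, 45.7 to 46.9 and 31.7 to 33.3 TPM, nearly all from Tek, with Cdh5 and Emcn at 0.1 TPM or less everywhere. Tek was the 1 of these 5 called higher with Zscan4f than in control (beside 8.74% of all genes). For 6 macrophage markers the sums were 12.4 to 14.9, 20.1 to 22.2 and 12.4 to 14.8 TPM, mostly from Cd68, with Ptprc and Adgre1 at 0.1 TPM or less everywhere. Cd68 was the 1 of these 6 called higher with Zscan4f than in control (beside 8.74% of all genes). Of 6 pluripotency markers 0 reached 1 TPM in 3 libraries. The part of these marker differences in the values below was not tested, and in bulk RNA fewer cells of a type and less RNA per cell cannot be told apart.

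D-type cyclins bind CDK4 and CDK6 and carry cells from growth signals into G1, and E-type cyclins with CDK2 then bring on S phase. CDK1 with cyclins A and B drives entry into mitosis, where Aurora and polo kinases, the spindle checkpoint, kinetochores and kinesins sort the chromosomes until the anaphase-promoting complex, activated by Cdc20, destroys cyclin B and securin. Many mitotic genes are transcribed together late in the cycle, and their promoters are known for 2 short sequences, the cell cycle genes homology region (CHR), bound by the MuvB complex, and the CCAAT box, bound by NF-Y. In fibroblasts such genes are commonly read as a sign of how many cells are dividing.

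The stretch of 250 bases before the gene start, taken from RefSeq on GRCm38.p6, was searched for these letters in the 28 of the 40 genes with an entry whose start lay within 200 bases of the start in the tables. The motifs were CHR (TTTGAA), the CCAAT box (CCAAT) and an E2F site (any of TTTCCCGC, TTTCGCGC, TTTGCCGC and TTTGGCGC), each on both strands. Shown are the promoters of Mki67, Top2a and Cdc20, which were higher with Zscan4f, and that of Cdk1, which holds the same letters and was not called. Ccnd1, Ccnd2 and Tpx2, the other genes called against control, had no such entry and were not searched. Nor were Cdk6, Ccne2 and Aurkb, called against Zscan4f3A only. All 4 genes lie on the minus strand, the sequences read 5′ to 3′ toward the gene, capitals mark every motif match, and no matches overlapped. They span chr7:135716380-135716629 (Mki67), chr11:99024190-99024439 (Top2a), chr4:118437344-118437593 (Cdc20) and chr10:69352913-69353162 (Cdk1).
Mki67: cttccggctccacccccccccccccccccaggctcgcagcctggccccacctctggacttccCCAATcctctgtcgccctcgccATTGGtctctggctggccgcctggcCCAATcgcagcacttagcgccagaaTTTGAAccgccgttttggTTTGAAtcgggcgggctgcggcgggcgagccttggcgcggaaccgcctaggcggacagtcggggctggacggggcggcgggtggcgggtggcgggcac
Top2a: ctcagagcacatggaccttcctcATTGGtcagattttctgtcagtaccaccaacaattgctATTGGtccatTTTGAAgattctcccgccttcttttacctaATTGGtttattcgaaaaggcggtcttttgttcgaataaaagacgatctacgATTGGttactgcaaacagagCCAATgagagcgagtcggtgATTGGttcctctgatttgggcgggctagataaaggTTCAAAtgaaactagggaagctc
Cdc20: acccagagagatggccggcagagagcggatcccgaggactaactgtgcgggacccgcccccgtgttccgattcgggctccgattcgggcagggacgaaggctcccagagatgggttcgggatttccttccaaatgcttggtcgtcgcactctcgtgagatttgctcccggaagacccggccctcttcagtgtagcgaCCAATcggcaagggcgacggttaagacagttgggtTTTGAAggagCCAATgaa
Cdk1: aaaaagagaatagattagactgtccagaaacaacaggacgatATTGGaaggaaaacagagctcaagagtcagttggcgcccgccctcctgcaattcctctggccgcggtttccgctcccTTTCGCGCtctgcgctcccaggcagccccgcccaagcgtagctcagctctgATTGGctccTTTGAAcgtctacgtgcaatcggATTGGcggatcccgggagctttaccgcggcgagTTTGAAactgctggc

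The CCAAT box was present before 18 of the 24 mitotic genes with a sequence (75.0%), against 37.8% of 7985 tested genes with a sequence of the same length. CHR was present before 6 of the 24 (25.0%), against 10.1% of all, and each of those 6 also held a CCAAT box (25.0%, against 4.10% of all). The 6 genes were Ccnb2, Cdc20, Cdk1, Kif11, Mki67 and Top2a. Among the 4 G1 genes with a sequence, CHR was found before 0 and the CCAAT box before 1, Cdk2. The E2F letters were found before Cdk1 and Cdk2 alone of the 28, and before 3.53% of all genes. A match describes letters in this window and is not a measured binding site.

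**Figure D1:**
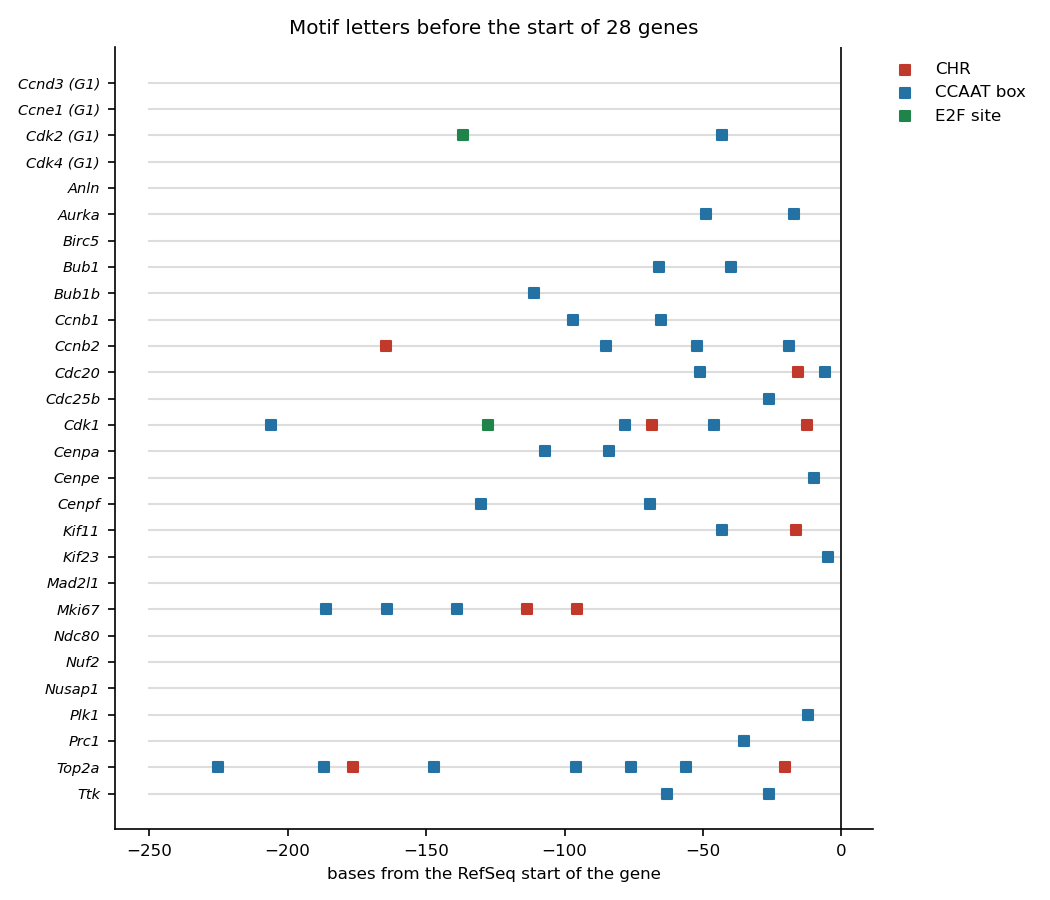
Positions of the searched letters in the 250 bases before the RefSeq start of each of 28 genes, in bases from the start, with 1 row a gene and colours for the CHR, the CCAAT box and the E2F site. CCAAT letters lie before 18 of the 24 mitotic genes and before 1 of the 4 G1 genes, and CHR letters before 6 and 0.

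Each gene was tested with limma on log2(TPM + 1) over all 15837 genes, with Benjamini-Hochberg adjustment, and counted as called where the adjusted p was under 0.05. A log2 fold change below is on that scale, which understates the change of low genes. With Zscan4f, 4 of the 40 genes rose against control (Mki67, Top2a, Cdc20 and Tpx2) and 2 fell (Ccnd1 and Ccnd2). Of all genes tested, 8.74% were called higher and 9.71% lower, so 10.0% and 5.0% of the 40 are shares near and below that background. Ccnd2 and Ccnd1 had the lowest adjusted p of the 40, and the 4 rises were small, with log2 fold changes of 0.24 to 0.25. The count of 4 went to 1 without control replicate 1 and to 2 without control replicate 3 or Zscan4f replicate 1, and to 6 with FPKM or with no trend of the prior variance. With Zscan4f3A, 0 of the 40 were called against control by limma, where 0.0189% of all genes were called higher and 0.0126% lower.

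Of the 8 G1 genes, 2 fell with Zscan4f against control (25.0%, beside 9.71% of all genes) and 0 rose (beside 8.74%). Their log2 fold changes ran from -0.60 to 0.33 with a median of 0.06. By library, their median log2 difference from the control mean was -0.08, 0.12 and -0.15 with Zscan4f, so its sign differed between libraries. Their summed level was 1495.7, 1529.8 and 1445.0 TPM in control, 1309.9, 1314.5 and 1202.4 with Zscan4f and 1500.0, 1461.9 and 1554.0 with Zscan4f3A. Between the overexpressed genes their median log2 fold change was -0.13. At an unadjusted p under 0.05 in limma there were 4 of the 8 (50.0%, beside 31.1%). Zscan4f3A against control gave 1 (12.5%, beside 8.77%). Between the overexpressed genes there were 6 (75.0%, beside 29.5%). Ccnd1 and Ccnd2 encode the D-type cyclins that connect growth signals to CDK4 and CDK6, and they were the most abundant transcripts of the 40, with means over the 9 libraries of 616 and 386 TPM. Cdk4 and Ccnd3 followed at 190.3 and 176 TPM and overlapped with each other, and the fifth gene, Top2a, stood at 37.6 TPM.

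Ccnd2 (ENSMUSG00000000184.12, chromosome 6, 127125162 to 127152193 on GRCm38) stood at 454, 447 and 447 TPM in the control libraries, at 303, 293 and 292 with Zscan4f and at 416, 409 and 409 with Zscan4f3A. The 3 groups did not overlap, and the Zscan4f libraries were the low ones, at 0.660 of the control mean. The log2 fold change with Zscan4f was -0.60 (SE 0.03, adjusted p = 3.87e-06). With Zscan4f3A it was -0.13 (SE 0.03, adjusted p = 0.299), which did not pass. The direct comparison of Zscan4f with Zscan4f3A gave -0.47 (SE 0.03, adjusted p = 2.2e-05), so the difference between the overexpressed genes itself passed the test.

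Ccnd1 (ENSMUSG00000070348.5, chromosome 7, 144929931 to 144939925) stood at 671, 649 and 653 TPM in control, at 565, 555 and 562 with Zscan4f and at 644, 630.2 and 616 with Zscan4f3A. Again the Zscan4f libraries lay below all others, and here the groups did not overlap either. Ccnd1 fell by 0.23 on the log2 scale with Zscan4f against control (SE 0.03, adjusted p = 0.000689) and was lower than with Zscan4f3A, at -0.17 (SE 0.03, adjusted p = 0.00452). The log2 fold change of Zscan4f3A against control was -0.06 (SE 0.03, adjusted p = 0.575). Ccnd1 overlaps Oraov1 on the opposite strand, and the library kit is not stated to keep strand, so reads of the overlap cannot be told apart. Oraov1 lay at 29.0 to 43.9 TPM, with a log2 fold change of 0.01 (adjusted p = 0.966) with Zscan4f against control.

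Ccnd2 was thus further below control than Ccnd1 in every Zscan4f library. The ratio of Ccnd2 to Ccnd1 was 0.677, 0.688 and 0.685 in control, 0.537, 0.528 and 0.520 with Zscan4f, and 0.645, 0.650 and 0.663 with Zscan4f3A. Summed over the 3 D-type cyclins the level was 1256, 1305 and 1190.0 TPM in control, 1063, 1062 and 968 with Zscan4f, and 1260.0, 1232 and 1266 with Zscan4f3A. The share of Ccnd2 in that sum was 34.2% to 37.6% in control, 27.6% to 30.2% with Zscan4f and 32.3% to 33.2% with Zscan4f3A. These ratios are descriptions of genes already compared and carry no test of their own.

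Ccnd3, the third D-type cyclin, varied widely within groups, at 132, 209.7 and 89.8 TPM in control, 195, 214 and 114 with Zscan4f and 201, 192 and 241 with Zscan4f3A. Its highest control library was 2.34 times its lowest, and the groups overlapped. The log2 fold change with Zscan4f was 0.31 with an SE of 0.32 (adjusted p = 0.572), so a change of the size seen for Ccnd2 was not detectable for this gene.

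Neither kinase partner of the D-type cyclins was called against control. Cdk4 stood at 182, 169.6 and 199.9 TPM in control, at 192, 192 and 175 with Zscan4f and at 190.1, 174 and 238 with Zscan4f3A, with all groups overlapping (log2 fold change with Zscan4f 0.02, adjusted p = 0.936). Cdk6 (chromosome 5, 3341485 to 3531008), at a lower level, stood at 14.8, 15.7 and 15.9 TPM in control, at 13.6, 12.6 and 12.6 with Zscan4f and at 15.7, 17.1 and 14.4 with Zscan4f3A. The Zscan4f libraries were lower than all others for Cdk6. Against control the log2 fold change of -0.24 (SE 0.07, adjusted p = 0.0548) missed the threshold, and against Zscan4f3A that of -0.26 (SE 0.07, adjusted p = 0.0456) passed it narrowly. The difference from control passed in 5 of 18 alternative fits (adjusted p down to 0.0347). The call against Zscan4f3A was lost in 12 of 18 alternative fits, among them 8 of the 9 that left out 1 library, with an adjusted p of up to 0.127.

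The E-type cyclins bind CDK2. Ccne2 (chromosome 4, 11191351 to 11204779) stood at 6.53, 6.88 and 6.72 TPM in control, at 10.1, 7.70 and 8.52 with Zscan4f and at 6.27, 7.05 and 6.03 with Zscan4f3A. Its Zscan4f libraries lay above all others. The log2 fold change was 0.33 against control (SE 0.10, adjusted p = 0.0561), which missed the threshold, and 0.39 against Zscan4f3A (SE 0.10, adjusted p = 0.0382), which passed. The difference from control passed in 5 of 18 alternative fits (adjusted p down to 0.0377, with FPKM). The call against Zscan4f3A was lost in 10 of 18 alternative fits, 7 of them without 1 library (adjusted p up to 0.103). Ccne2 overlaps Ints8 on the opposite strand, which lay at 34.1 to 42.7 TPM with a log2 fold change of 0.07 (adjusted p = 0.562) against control. Ccne1 had group means of 16.4 ± 0.974, 17.6 ± 1.48 and 15.2 ± 0.792 TPM in control, Zscan4f and Zscan4f3A (SD, n = 3 each). Cdk2 had means of 17.4 ± 2.95, 19.0 ± 2.94 and 14.2 ± 1.46 TPM in that order, and neither gene was called in any comparison.

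**Figure D2:**
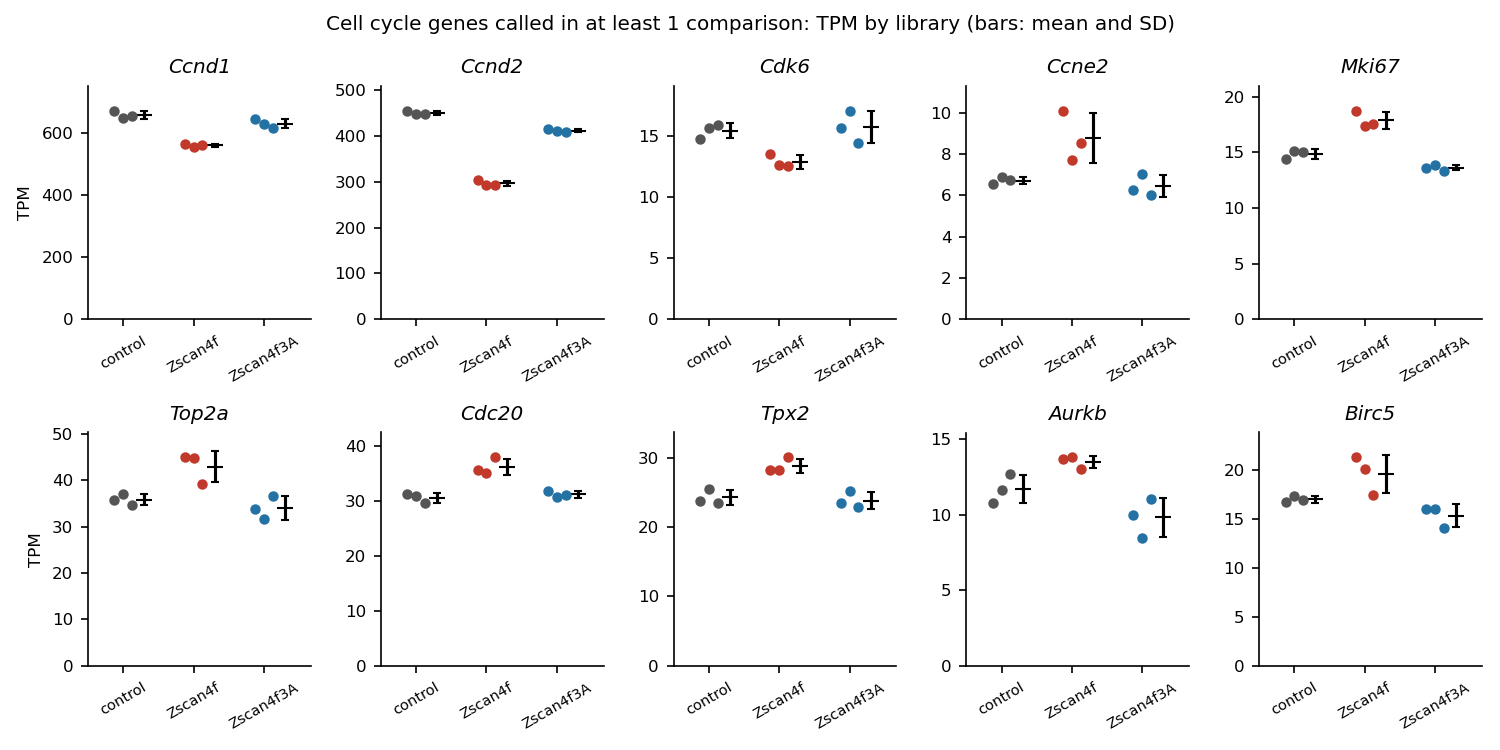
TPM in each of the 9 libraries for the 10 genes called in at least 1 comparison, with coloured points for libraries and black bars for the mean and SD of each group of 3; each vertical axis starts at 0. Ccnd1, Ccnd2 and Cdk6 are lowest in the Zscan4f libraries (for Ccnd2 292 to 303 TPM against 447 to 454 in control), and the other 7 genes are highest there.

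The 32 mitotic genes lay slightly higher with Zscan4f than in control, and 28 of them did not pass the test. Their levels were modest, with group means in control from 2.41 TPM (Cdc25c) to 35.8 TPM (Top2a) and a median of 14.0. Summed over the 32, the level was 455, 458 and 471 TPM in control, 515, 507 and 514 with Zscan4f and 450.2, 439.7 and 450.5 with Zscan4f3A. In each library the median log2 difference from the control mean was -0.02, -0.01 and 0.02 in control, 0.18, 0.13 and 0.15 with Zscan4f and -0.05, -0.08 and -0.06 with Zscan4f3A. All 3 Zscan4f libraries were thus above, and all 3 Zscan4f3A libraries below, the control libraries.

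Against control, 4 of the 32 (12.5%) rose with Zscan4f, again near the background of 8.74% of all genes called higher. None fell (0 of the 32), where 9.71% of all genes were called lower. The fitted log2 fold changes ran from -0.05 to 0.36, with a median of 0.15 beside -0.00 over all genes tested, and 29 of the 32 were above 0 (90.6%, beside 49.5% of all genes). In size, 19 of the 32 were at 0.1 or above, 13 lay within 0.1 of 0, 0 were at -0.1 or below and 0 exceeded 0.5. The SE of a single gene was 0.05 to 0.18 with a median of 0.10, beside the median difference of 0.15. It describes single genes and not the median over the 32. The libraries of Zscan4f and control did not overlap for 10 of the 32 mitotic genes that were higher and 0 that were lower. Over all 40 genes there were 11 higher and 3 lower, where 19.0% and 19.2% of all genes showed each pattern. The 3 lower ones were the G1 genes Ccnd1, Ccnd2 and Cdk6.

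**Figure D3:**
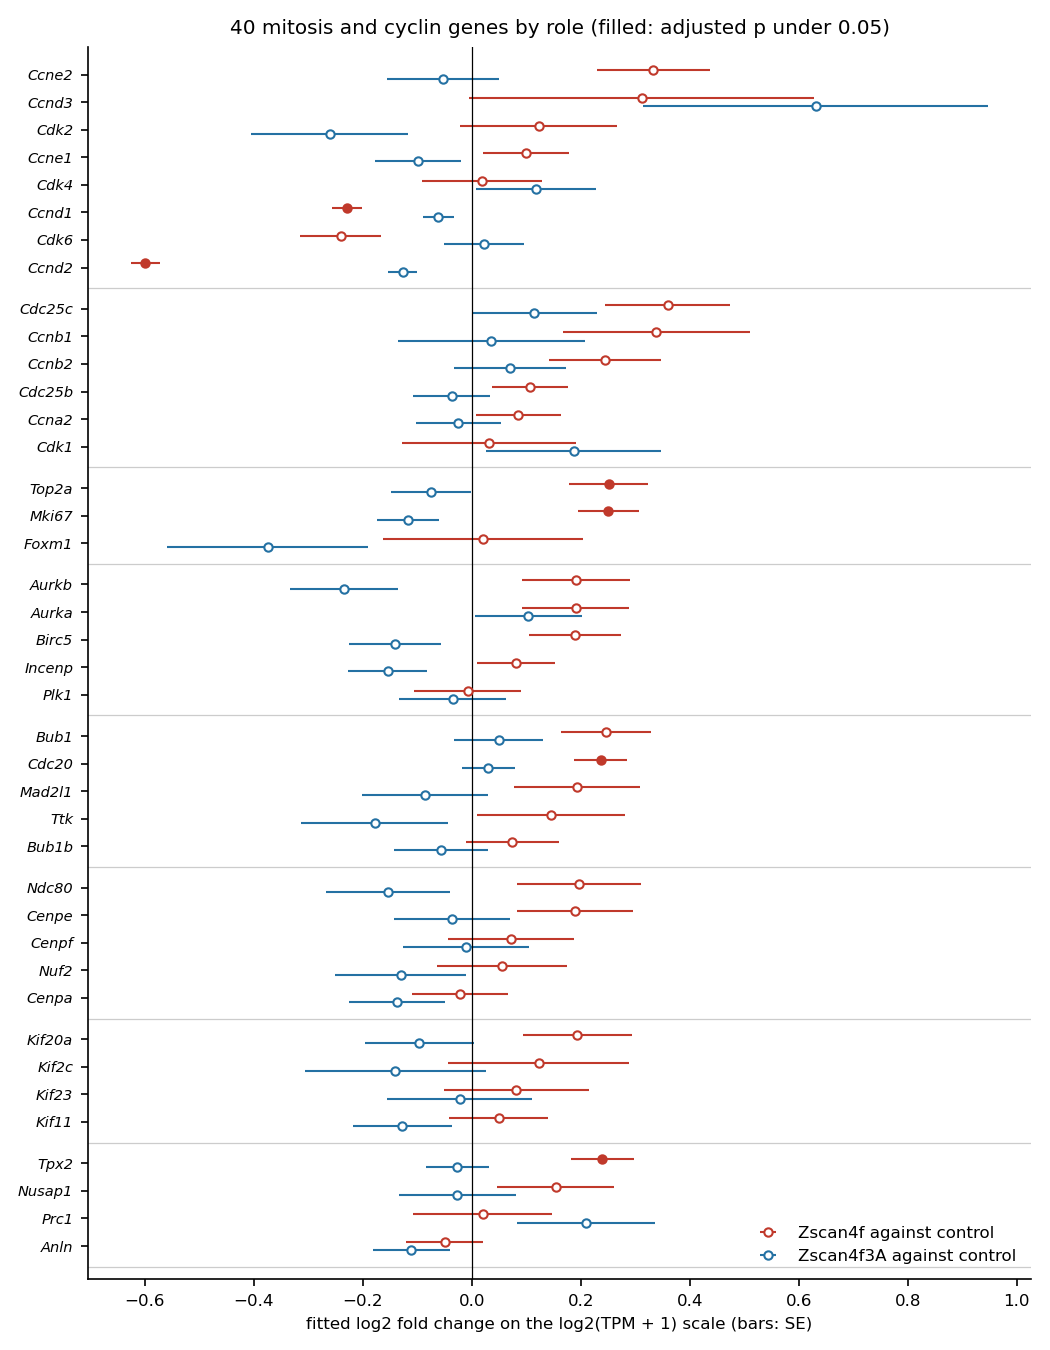
Fitted log2 fold changes on the log2(TPM + 1) scale for the 40 genes, grouped by role, for Zscan4f against control (red) and Zscan4f3A against control (blue), with bars of 1 SE and filled points where the adjusted p was under 0.05. The comparisons share the control libraries; 6 red points and 0 blue points are filled, and the red points of the 32 mitotic genes lie between -0.05 and 0.36.

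Mki67 and Top2a are widely used markers of dividing cells. Mki67 (ENSMUSG00000031004.8, chromosome 7, 135689784 to 135716361), which encodes the Ki-67 protein that coats mitotic chromosomes, stood at 14.4, 15.1 and 15.1 TPM in control, at 18.7, 17.3 and 17.6 with Zscan4f and at 13.6, 13.8 and 13.4 with Zscan4f3A. The 3 groups did not overlap, with the Zscan4f libraries highest and the Zscan4f3A libraries lowest. Mki67 rose with Zscan4f, with a fitted log2 difference of 0.25 (SE 0.06, adjusted p = 0.0154), and it was higher than with Zscan4f3A by 0.37 (SE 0.06, adjusted p = 0.00309). The call against control was lost without control replicate 1 or Zscan4f replicate 1 (adjusted p up to 0.0565). The value of Zscan4f3A against control, -0.12 (SE 0.06, adjusted p = 0.589), did not pass.

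Top2a (ENSMUSG00000020914.17, chromosome 11, 98992943 to 99024189) encodes topoisomerase II alpha, which untangles sister chromatids. It stood at 35.7, 37.1 and 34.7 TPM in control, at 44.9, 44.7 and 39.1 with Zscan4f and at 33.9, 31.6 and 36.6 with Zscan4f3A. The Zscan4f libraries were above all others, while control and Zscan4f3A overlapped. The log2 fold change was 0.25 against control (SE 0.07, adjusted p = 0.0444) and 0.33 against Zscan4f3A (SE 0.07, adjusted p = 0.0186). The call against control was lost in 9 of 18 alternative fits, with an adjusted p of up to 0.136, among them those without any 1 of the control libraries, Zscan4f replicate 1 or 2, or Zscan4f3A replicate 1. The call against Zscan4f3A was lost in 6 of 18, among them the fit of only the 2 groups compared and those without replicate 1 or 2 of either group (adjusted p up to 0.0673).

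Foxm1, a transcription factor of late cell cycle genes, stood at 12.0, 13.2 and 14.1 TPM in control, at 12.8, 14.5 and 12.7 with Zscan4f and at 12.7, 10.9 and 6.83 with Zscan4f3A. The last of these, from the library of lowest depth, set it apart, and Foxm1 was called in no comparison (log2 fold change with Zscan4f 0.02, SE 0.18, adjusted p = 0.959).

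Cdk1 and its regulators were not called in any comparison. Cdk1 stood at 15.2, 15.1 and 15.7 TPM in control, at 14.3, 15.7 and 17.2 with Zscan4f and at 13.3, 17.9 and 22.7 with Zscan4f3A, with all groups overlapping. Its log2 fold change with Zscan4f was 0.03 (SE 0.16, adjusted p = 0.928). Cdc25b, a phosphatase that activates CDK1, stood at 29.5, 27.8 and 28.9 TPM in control, at 31.2, 28.3 and 33.8 with Zscan4f and at 28.7, 26.5 and 28.7 with Zscan4f3A. Ccna2, cyclin A2, stood at 20.2, 19.8 and 22.9 TPM, at 21.4, 24.2 and 21.2, and at 20.3, 21.6 and 19.8 in the same order. Both of these overlapped between groups. The B-type cyclins Ccnb1 and Ccnb2 had means of 13.8 ± 3.02 and 12.1 ± 0.976 TPM in control, 17.5 ± 2.30 and 14.6 ± 1.10 with Zscan4f, and 14.1 ± 2.46 and 12.8 ± 1.57 with Zscan4f3A. Cdc25c, a second activating phosphatase and the least abundant of the 40, had means of 2.41 ± 0.0379, 3.39 ± 0.382 and 2.70 ± 0.392 TPM (SD, n = 3 each) and a log2 fold change of 0.36 with Zscan4f (SE 0.11, adjusted p = 0.0624), the highest estimate of the 40; it passed in 1 of 18 alternative fits (adjusted p = 0.0312).

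The polo and Aurora kinases Plk1, Aurka and Aurkb drive steps of mitosis, and Aurkb acts with Birc5 (survivin) and Incenp in the chromosomal passenger complex. Of these 5 genes, 2 (Birc5 and Aurkb) were called higher with Zscan4f than with Zscan4f3A, where 7.48% of all genes were called higher. Against control 0 of the 5 were called, where with Zscan4f 8.74% of all genes were called higher and 9.71% lower. At an unadjusted p under 0.05 in limma there were 3 between the overexpressed genes (Aurkb, Birc5 and Incenp, beside 29.5% of all genes). There were 0 with Zscan4f against control (beside 31.1%) and 1, Aurkb, with Zscan4f3A (beside 8.77%). Birc5 (chromosome 11, 117849251 to 117855743) stood at 16.7, 17.4 and 16.9 TPM in control, at 21.3, 20.1 and 17.4 with Zscan4f and at 16.0, 16.0 and 14.0 with Zscan4f3A. Aurkb (chromosome 11, 69045647 to 69051664) stood at 10.8, 11.6 and 12.7 TPM in control, at 13.7, 13.8 and 13.0 with Zscan4f and at 10.0, 8.45 and 11.1 with Zscan4f3A. For both, the Zscan4f libraries were above all others, Birc5 in Zscan4f replicate 3 only just. Neither passed against control, with a log2 fold change of 0.19 for each (adjusted p = 0.165 for Birc5 and 0.233 for Aurkb). Zscan4f against Zscan4f3A gave 0.33 for Birc5 (SE 0.08, adjusted p = 0.0316) and 0.43 for Aurkb (SE 0.10, adjusted p = 0.0224), both past the threshold. The Birc5 call was lost in 8 of 18 alternative fits: with no filter on low values, with only the 2 groups compared, and without control replicate 3, Zscan4f replicate 1 or 2, or any Zscan4f3A library (adjusted p up to 0.0993). The Aurkb call was lost without any Zscan4f library or Zscan4f3A replicate 1 or 2 (adjusted p up to 0.0712).

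Incenp stood at 15.5, 15.7 and 17.6 TPM in control, at 18.2, 16.9 and 16.6 with Zscan4f and at 15.3, 14.2 and 13.9 with Zscan4f3A. Its 3 Zscan4f3A libraries were below all others, and its difference between the overexpressed genes, a log2 fold change of 0.24, did not pass (adjusted p = 0.0608) except with quantile normalization (0.0491). Plk1, the polo kinase of mitotic entry, had means of 16.1 ± 0.408, 16.0 ± 1.55 and 15.7 ± 1.94 TPM in control, Zscan4f and Zscan4f3A. Aurka, the Aurora kinase of spindle poles, had means of 14.3 ± 1.32, 16.4 ± 1.38 and 15.4 ± 1.52 TPM in that order (SD, n = 3 each), and neither was called.

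Cdc20 (ENSMUSG00000006398.15, chromosome 4, 118432901 to 118437352), the activator of the anaphase-promoting complex on which the spindle checkpoint acts, stood at 31.2, 30.8 and 29.6 TPM in control, at 35.5, 35.1 and 37.9 with Zscan4f and at 31.9, 30.6 and 31.1 with Zscan4f3A. The Zscan4f libraries were higher than all others, and control and Zscan4f3A overlapped. Cdc20 rose by 0.24 on the log2 scale against control (SE 0.05, adjusted p = 0.0101) and was higher than with Zscan4f3A by 0.21 (SE 0.05, adjusted p = 0.0233). It overlaps Elovl1 on the opposite strand, which lay at 128 to 162 TPM with a log2 fold change of -0.01 (adjusted p = 0.978) against control. The call of Cdc20 against Zscan4f3A was lost in 6 of 18 alternative fits, among them that of only the 2 groups compared and those without Zscan4f replicate 1 or 3 or Zscan4f3A replicate 2 or 3 (adjusted p up to 0.0825).

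The checkpoint kinases and Mad2l1, which hold Cdc20 back until chromosomes are attached, were not called. With Cdc20 they are 5 genes. Of the 5, 4 had an unadjusted p under 0.05 in limma between the overexpressed genes (Bub1, Mad2l1, Ttk and Cdc20, beside 29.5% of all genes). There were 2 with Zscan4f against control (Bub1 and Cdc20, beside 31.1%) and 0 with Zscan4f3A (beside 8.77%). Mad2l1 stood at 14.3, 12.8 and 14.7 TPM in control, at 16.2, 13.5 and 18.7 with Zscan4f and at 13.7, 13.6 and 11.8 with Zscan4f3A. Bub1 had means of 5.30 ± 0.271 TPM in control and 6.47 ± 0.213 with Zscan4f, without overlap (log2 fold change 0.25, SE 0.08, adjusted p = 0.0737), and 5.53 ± 0.425 with Zscan4f3A. Its difference from control passed in 2 of 18 alternative fits (adjusted p down to 0.0336). Bub1b had means of 7.97 ± 0.633, 8.43 ± 0.541 and 7.62 ± 0.464 TPM, and Ttk of 5.13 ± 0.404, 5.80 ± 0.680 and 4.46 ± 0.846, in control, Zscan4f and Zscan4f3A.

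None of the 5 genes of the centromere and kinetochore, the platform on which microtubules hold chromosomes, was called by limma in any comparison. At an unadjusted p under 0.05 there were 0 against control with Zscan4f (31.1% of all genes passed that limit), 0 with Zscan4f3A (8.77% of all) and 1, Ndc80, between the overexpressed genes (29.5% of all). Between the overexpressed genes Ndc80 was called in 2 of the 18 alternative fits and Cenpe in 1. Cenpa, the histone H3 variant of centromeres, stood at 13.8, 16.6 and 14.9 TPM in control, at 14.6, 14.6 and 15.3 with Zscan4f and at 12.3, 13.9 and 14.8 with Zscan4f3A. Nuf2 stood at 9.96, 10.3 and 9.82 TPM, at 9.75, 10.7 and 10.9, and at 11.1, 8.82 and 7.58 in the same order. Ndc80, the partner of Nuf2 in the microtubule-binding complex, had means of 7.06 ± 0.723, 8.22 ± 0.379 and 6.27 ± 0.996 TPM. The large proteins Cenpe and Cenpf had control means of 4.58 ± 0.213 and 3.71 ± 0.279 TPM, means of 5.36 ± 0.104 and 3.96 ± 0.573 with Zscan4f, and 4.47 ± 0.747 and 3.68 ± 0.339 with Zscan4f3A.

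The 4 mitotic kinesins, motors that build the spindle and the cleavage furrow, were not called either in limma. At an unadjusted p under 0.05 there were 0 of the 4 in both comparisons against control (beside 31.1% and 8.77% of all genes) and 1, Kif20a, between the overexpressed genes (beside 29.5%). Kif20a stood at 15.6, 14.7 and 18.0 TPM in control, at 17.4, 19.6 and 18.5 with Zscan4f and at 15.7, 13.2 and 16.1 with Zscan4f3A. Kif23 stood at 15.9, 13.5 and 13.1 TPM, at 18.0, 13.7 and 13.7, and at 12.5, 13.4 and 16.1 in the same order, overlapping throughout. Kif2c had means of 8.46 ± 1.61, 9.29 ± 1.66 and 7.54 ± 0.921 TPM, and Kif11 of 3.55 ± 0.0562, 3.72 ± 0.330 and 3.17 ± 0.150.

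Tpx2 (ENSMUSG00000027469.16, chromosome 2, 152847964 to 152895321), which activates Aurora A and nucleates spindle microtubules, stood at 23.8, 25.5 and 23.5 TPM in control, at 28.3, 28.2 and 30.0 with Zscan4f and at 23.4, 25.1 and 22.9 with Zscan4f3A. Its Zscan4f libraries were above all others. Tpx2 rose by 0.24 on the log2 scale against control (SE 0.06, adjusted p = 0.0213) and was higher than with Zscan4f3A by 0.27 (SE 0.06, adjusted p = 0.0167). The call against control was lost when control replicate 1, control replicate 3 or Zscan4f replicate 3 was left out, with an adjusted p of up to 0.0792, and that against Zscan4f3A without Zscan4f replicate 3 or Zscan4f3A replicate 1 (up to 0.0650).

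Anln, anillin of the cleavage furrow, stood at 31.4, 32.3 and 31.6 TPM in control, at 32.6, 31.0 and 28.6 with Zscan4f and at 29.6, 31.7 and 26.9 with Zscan4f3A. It was the mitotic gene with the lowest estimate against control, -0.05 (SE 0.07, adjusted p = 0.702). Prc1, the bundler of midzone microtubules, had means of 18.1 ± 1.21, 18.3 ± 1.29 and 21.3 ± 4.33 TPM in control, Zscan4f and Zscan4f3A, with the last pulled up by 26.2 TPM in the library of lowest depth. Nusap1 had means of 9.01 ± 0.773, 10.2 ± 1.41 and 8.83 ± 0.652 TPM, and none of these 3 was called. Among the genes not called, Cdk4, Ccnd3, Cdk2, Ccna2, Cdc25b, Kif20a, Nusap1 and Prc1 also overlap a gene on the opposite strand that passed the filter (Tspan31, Bysl, Pmel, Exosc9, Spef1, Cdc23, Oip5 and Rccd1 in that order), so their values carry the same uncertainty. Pmel lay at 0.653 to 1.60 TPM. Ccnd2 overlaps 1 such locus, at 0 to 2.16 TPM, far below Ccnd2 itself.

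**Figure D4:**
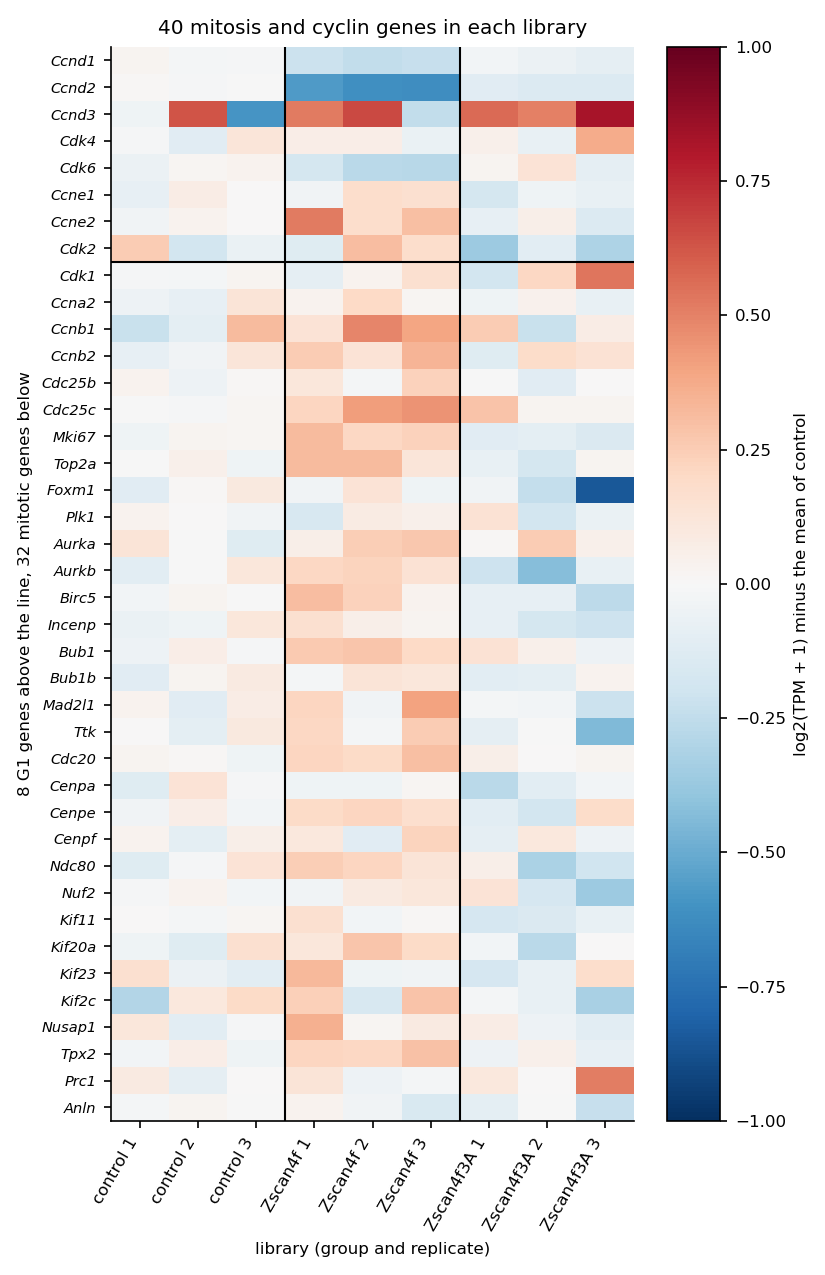
Log2(TPM + 1) minus the control mean for each of the 40 genes (rows) in each of the 9 libraries (columns), red for higher and blue for lower, with a horizontal line between the 8 G1 genes and the 32 mitotic genes. Ccnd1 and Ccnd2 are blue in all 3 Zscan4f libraries, Ccnd3 varies within groups, and Zscan4f3A replicate 3 stands apart for Foxm1 (6.83 TPM), Prc1 (26.2 TPM) and Cdk1 (22.7 TPM).

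Against control, Zscan4f3A gave 0 calls among the 40 genes with limma, and 2 at an unadjusted p under 0.05 (Ccnd2 and Aurkb, 5.0%, where 8.77% of all genes were). The libraries did not overlap for 1 higher gene (Cdc25c) and 6 lower genes (Ccnd1, Ccnd2, Mki67, Birc5, Incenp and Kif11), patterns shown by 6.29% and 9.09% of all genes. The median over the 32 mitotic genes was -0.05, beside -0.01 over all genes, and 8 of the 32 estimates were above 0 (25.0%, beside 46.3%). The 2 comparisons against control share the control libraries, so their estimates are not independent. For the called genes the values side by side, Zscan4f first, were -0.60 and -0.13 for Ccnd2, -0.23 and -0.06 for Ccnd1, 0.25 and -0.12 for Mki67, 0.25 and -0.07 for Top2a, 0.24 and 0.03 for Cdc20, and 0.24 and -0.03 for Tpx2.

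The difference between the overexpressed genes was tested directly in the comparison of Zscan4f with Zscan4f3A. Higher with Zscan4f were 7 of the 40 genes (17.5%): Ccne2, Mki67, Top2a, Aurkb, Birc5, Cdc20 and Tpx2, where 7.48% of all genes were called higher. Lower were Ccnd1, Ccnd2 and Cdk6, 3 of the 40 (7.5%), where 7.64% of all genes were called lower. At an unadjusted p under 0.05 in limma there were 18 of the 40 (45.0%), beside 29.5% of all genes. The same count for Zscan4f against control was 11 (27.5%, beside 31.1%). Libraries did not overlap between Zscan4f and Zscan4f3A for 13 higher and 3 lower genes, patterns shown by 18.3% and 16.5% of all genes. Among the 32 mitotic genes 6 were called higher with Zscan4f than with Zscan4f3A (18.8%, beside 7.48% of all genes) and 0 lower (beside 7.64%). Their median log2 fold change was 0.20 beside 0.00 over all genes, and 30 of 32 estimates were above 0. The count of higher calls was 3 when only these 2 groups were fitted and 2 to 6 when 1 library was left out (2 without Zscan4f replicate 1, 3 without Zscan4f replicate 3 or Zscan4f3A replicate 1 or 2, 4 without Zscan4f replicate 2), and of the 10 genes called, only Ccnd1, Ccnd2 and Mki67 were called in all 18 alternatives.

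The 6 genes with CHR and CCAAT letters before their start did not share 1 call. Against control, Mki67, Top2a and Cdc20 were called, at 0.25, 0.25 and 0.24, and Ccnb2, Kif11 and Cdk1 were not, at 0.24 (adjusted p = 0.144), 0.05 (adjusted p = 0.781) and 0.03 (adjusted p = 0.928). Their median was 0.24, beside 0.13 for the 18 other mitotic genes with a sequence, a description of lists with no test. Against Zscan4f3A the medians were 0.19 and 0.16.

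Beyond the 40, 136 other cell division genes in 5 lists were all tested. With Zscan4f against control 12 rose (8.82%) and 2 fell (1.47%), beside the backgrounds of 8.74% and 9.71%, and their median log2 fold change was 0.08. The list of 64 other kinetochore and spindle genes also holds genes of other mitotic roles, such as Cks1b, Cks2, Cdca3 and Melk. Of the 64 genes 5 rose (7.81%, beside 8.74% of all genes) and 0 fell (beside 9.71%). Those with the smallest p were Zwint, a kinetochore linker (98.6 ± 1.51 to 131 ± 10.7 TPM, log2 fold change 0.40, adjusted p = 0.0138), Cdca3, a trigger of mitotic entry (12.4 ± 0.455 to 16.9 ± 1.25, 0.42, adjusted p = 0.0204), and Cks1b, a small subunit of CDK complexes (48.6 ± 4.38 to 59.7 ± 4.16, 0.29, adjusted p = 0.0378). The other 2, Zwilch and Kif20b, were added to the named genes after their values were seen. Of 23 condensin and cohesin genes the condensin I subunits Ncapd2 (22.1 ± 1.86 to 28.8 ± 1.24 TPM, 0.37, adjusted p = 0.00823) and Ncapg (5.61 ± 0.175 to 6.94 ± 0.248, 0.26, adjusted p = 0.0380) rose and 0 fell. These 2 were 8.70% of that list, near the 8.74% of all genes called higher, and the 0 that fell stand beside 9.71% called lower.

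Of 19 genes of the anaphase-promoting complex and its regulators 2 rose with Zscan4f against control (10.5%) and 0 fell. These shares stand beside 8.74% and 9.71% of all genes. Ccnf, cyclin F, which targets proteins for destruction in G2, stood at 5.39, 5.17 and 5.52 TPM in control, at 8.25, 8.49 and 8.26 with Zscan4f and at 6.48, 5.69 and 6.10 with Zscan4f3A. Its 3 groups did not overlap, and its log2 fold change of 0.55 (SE 0.07, adjusted p = 0.00121) exceeded the 0.36 of Cdc25c, the highest estimate of the 40. Ube2c, the ubiquitin-conjugating enzyme of the complex, rose from 31.6 ± 2.97 to 40.7 ± 1.39 TPM (0.36, adjusted p = 0.0160).

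The list of 23 E2F and DREAM regulators also holds Cdc25a, Wee1 and Pkmyt1, which act on CDKs. Of the 23 genes 3 rose with Zscan4f against control (13.0%, beside 8.74% of all genes) and 0 fell (beside 9.71%). E2f2, an activating E2F, stood at 2.82, 2.55 and 2.24 TPM in control, at 4.64, 5.61 and 5.06 with Zscan4f and at 3.03, 2.44 and 2.60 with Zscan4f3A. Its Zscan4f libraries were above all others, and its log2 fold change against control was 0.79 (SE 0.11, adjusted p = 0.00176). E2f5, a repressive E2F, rose from 16.5 ± 0.449 to 21.9 ± 0.480 TPM (0.39, adjusted p = 0.0171), and Lin37, a MuvB subunit, from 45.4 ± 5.69 to 59.4 ± 1.90 TPM (0.39, adjusted p = 0.0215).

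Of 7 CDK inhibitors 2 fell with Zscan4f against control (28.6%, beside 9.71% of all genes) and 0 rose (beside 8.74%). Cdkn1a, which encodes p21, stood at 959, 944 and 902 TPM in control, at 765, 801 and 806 with Zscan4f and at 961, 945 and 956 with Zscan4f3A. The Zscan4f libraries were below all others, and control and Zscan4f3A overlapped (log2 fold change with Zscan4f -0.24, adjusted p = 0.00131). Cdkn2a, which encodes p16 and p19ARF, fell from 273 ± 10.5 to 238 ± 1.69 TPM (-0.20, adjusted p = 0.0270). With Zscan4f3A against control 0 of the 136 were called by limma, and 6 had an unadjusted p under 0.05 (4.41%, beside 8.77% of all genes). Between the overexpressed genes 12 were called higher (8.82%, beside 7.48% of all genes) and 2 lower (1.47%, beside 7.64%).

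**Figure D5:**
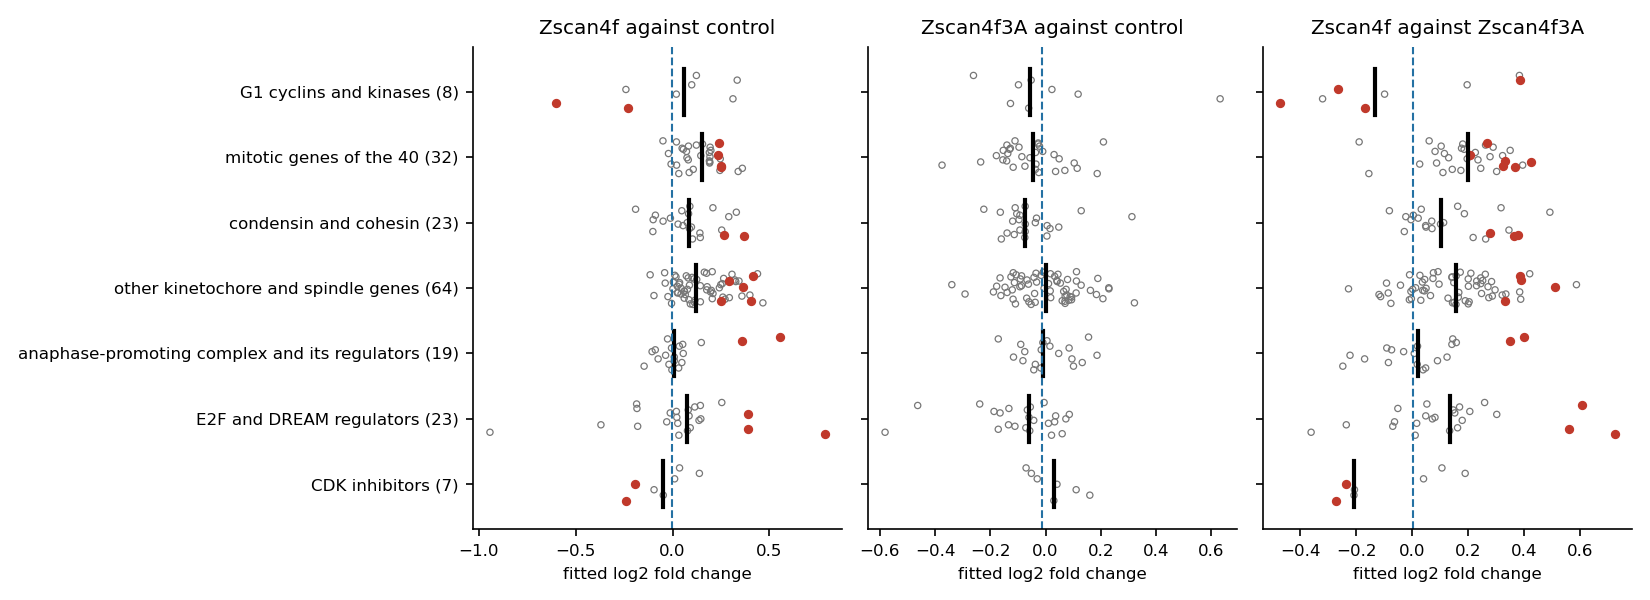
Fitted log2 fold changes for the 8 G1 genes, the 32 mitotic genes and the 5 other lists (list size in parentheses) in the 3 comparisons, with red points for genes called at an adjusted p under 0.05, open points for the rest, a black bar for the list's median and a dashed line for the median of all genes tested. The mitotic median is 0.15 for Zscan4f against control, -0.05 for Zscan4f3A against control and 0.20 for Zscan4f against Zscan4f3A.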

How the data were processed

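Total RNA was made into 9 libraries with an Illumina TruSeq RNA kit, per the labels' protocols. Reads were aligned with HISAT2 2.1.0 and abundance was estimated with StringTie, per the submitters' processing notes. The StringTie version, genome build and annotation release were not given in the sources used here. Per the file headers, the deposited tables hold TPM, FPKM and coverage per gene ID. The authors scaled TPM by transcript length and to a common sum, and FPKM by transcript length and library fragments. Coverage, also deposited, is mean read depth and was used with FPKM to estimate each library's depth. The tables hold no counts, so no counting interval could be given and precision is the SD of 3 libraries.

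Groups were taken from the labels. The gene spans of 37 of the 40 genes equal those of GRCm38 (GENCODE M21), all but Cdc25c, Incenp and Kif20a. Genes were kept at 1 TPM or more in 3 or more of the 9 libraries, and log2(TPM + 1) was fitted in all 3 groups with limma 3.58.1 in R 4.3.3, with a trend of the prior variance, two-sided tests and Benjamini-Hochberg adjustment over all 15837 genes at 0.05. Counts of genes are read beside the share of all genes called. Values in every library are given for called genes and for the 2 most abundant genes of each role, with some others; of the other lists, up to 3 called genes with the smallest p are named. The genes, lists and rules were chosen with earlier results of these data known. The fits were repeated with FPKM, with a pseudocount of 0.1, without a filter, with a filter at 5 TPM, with median-of-ratios or quantile scaling, with only the 2 groups compared, without the trend, with a block for the replicate number, and without each library in turn. The code was tested on simulated data. Promoters came from RefSeq (GRCm38.p6). Python 3.11.15 with pandas 2.3.3, numpy 2.4.6 and matplotlib 3.10.9 made tables and figures.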

Additional observations from a re-analysis of the deposited data

How the results depend on the processing

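Under the 18 alternatives the called genes and the medians kept their direction, except that the median of the 8 G1 genes against control, 0.06 with Zscan4f, was -0.0039 without control replicate 2. The calls of Ccnd1, Ccnd2 and Cdc20 against control, and of Ccnd1, Ccnd2 and Mki67 against Zscan4f3A, held in all 18. For Zscan4f against control, the 4 genes called higher were 6 with FPKM or without the variance trend, 5 with median-of-ratios or quantile scaling and 1 to 4 with 1 library left out (1 without control replicate 1), and Mki67 was lost without control replicate 1 or Zscan4f replicate 1 (adjusted p up to 0.0565 with limma). The median of the 32 mitotic genes was 0.18 with quantile normalization and 0.12 to 0.17 with 1 library left out. For Zscan4f3A against control, all genes called numbered 5, 3 with no filter, 1 with the replicate block and 1 to 16 with 1 library left out (1 without control replicate 3, 16 without Zscan4f3A replicate 3); the mitotic median was -0.0217 with FPKM and -0.0736 to -0.0468 with 1 library left out. For Zscan4f against Zscan4f3A, 7 higher calls became 3 with only the 2 groups fitted, 4 with the replicate block and 2 to 6 with 1 library left out, and all genes called went from 2395 to between 1574 (without Zscan4f replicate 3) and 2168. The mitotic median there was 0.22 with a pseudocount of 0.1, 0.16 with FPKM, 0.24 with quantile normalization and 0.18 to 0.24 with 1 library left out, and the G1 median was -0.181 to -0.0491 with 1 library left out. Why these values moved was not tested. Where leaving out a library leaves 2 in a group, the spread is shared with the other groups. Same-numbered libraries did not deviate together (correlations of deviations -0.08 to 0.05), so the numbers were not taken as pairs; with the replicate block, all genes called in Zscan4f against control went from 2922 to 2504, Top2a was lost in both comparisons, and Cdk6, Ccne2 and Cdc20 were lost against Zscan4f3A. The unknown number of fragments behind a value, and the lower depth of Zscan4f3A replicate 3, limit what can be said of the least abundant genes.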

Other observations

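Some cell division genes jumped between libraries of a group, and they were picked out after their values were seen. E2f3, an activating E2F, stood at 19.0, 18.3 and 18.6 TPM in control, at 17.6, 6.39 and 6.78 with Zscan4f and at 17.4, 5.94 and 16.8 with Zscan4f3A. The low libraries were thus Zscan4f replicates 2 and 3 and Zscan4f3A replicate 2. Its ratio of the highest to the lowest library was 2.75 with Zscan4f and 2.93 with Zscan4f3A, above 99.2% and 98.2% of the ratios in those groups over the 11532 genes with a mean of at least 5 TPM. Pds5a, a cohesin regulator, stood at 35.1, 45.4 and 63.7 TPM in control, at 75.8, 33.4 and 73.9 with Zscan4f and at 64.7, 43.3 and 70.2 with Zscan4f3A. Ccnd3 had a ratio of 2.34 in control, above 98.8% of those genes. Their cause was not tested. Kif11 was listed on chromosome 19 at 3.04 to 4.09 TPM and on an assembly scaffold at 3.03 to 4.09 TPM.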
